A study of Homo sapiens with 3 samples.

Results

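Collagens, laminins and integrins are the matrix proteins on which epithelial cells sit and the receptors with which cells hold them. The genes were chosen by name, as every listed gene called COL with a chain number, LAMA, LAMB or LAMC with a number, or ITGA or ITGB, which gave 82 of the 50868 listed identifiers. They are 44 collagens, 12 laminins, 18 integrin alpha subunits and 8 integrin beta subunits. Had a name been shared by several identifiers, the one with the highest mean level would have been kept, but no member's name was shared. The families themselves were chosen with earlier results of these data known.

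The cells are labelled AGS, a human gastric cancer line, and were cultured for 48 h with 12 µM of a compound named SFA, with 18 µM of a compound named SFE, or with DMSO as the negative control. What the code names stand for is not given in the sources used here. Markers of cell type were mixed. EPCAM, KRT19 and CDH1, known from most epithelia, were at or under 0.336 FPKM in every library, whereas the epithelial keratins KRT8, KRT18 and KRT7 were at 118 FPKM or more. CSPG4 and PDGFRB, known from pericytes, were measured in all, whereas RGS5, MYH11 and CNN1 of pericytes and smooth muscle were under 1 FPKM. Whether the cells are the labelled line was not tested, so the levels below are those of the libraries labelled AGS. RNA depleted of ribosomal RNA was sequenced from 1 library per group, with 13639844 counts in the SFA library, 13644676 in the SFE library and 18767232 in the DMSO library. With no replicates there is no test between conditions, every difference is one between single libraries, and intervals cover counting error alone. The doses of SFA and SFE differ, so both are set beside DMSO and no comparison is made between them.

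As background, a collagen molecule is a triple helix of chains, and fibrillar collagens assemble into the fibres of connective tissue, whereas the network of type IV collagen is the scaffold of the basement membrane. A laminin is a trimer of an alpha, a beta and a gamma chain that makes up the sheet of the basement membrane next to the cell. An integrin pairs an alpha with a beta subunit, and the pair sets which matrix protein is bound. Cancer cells of epithelial origin often make laminins and their receptors themselves, while fibrillar collagens are better known as products of fibroblasts.

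Levels are given in FPKM, the deposited measure of counts scaled to gene length and to the total of the library. Of the 82 genes, 35 reached 1 FPKM in at least 1 library and are called measured here, 30 of them in all libraries. A further 5 genes (COL4A3, COL9A3, ITGA2, ITGB8 and LAMA1) passed in some libraries, so that part of their difference follows from passing. The remaining 47 stayed under 1 FPKM, 8 of them at 0 counts in every library. In the SFA library 32 members reached 1 FPKM, in the SFE library 33 and in the DMSO library 33. A count of 0 in a library allows a true value of up to 3 counts.

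**Figure D1:**
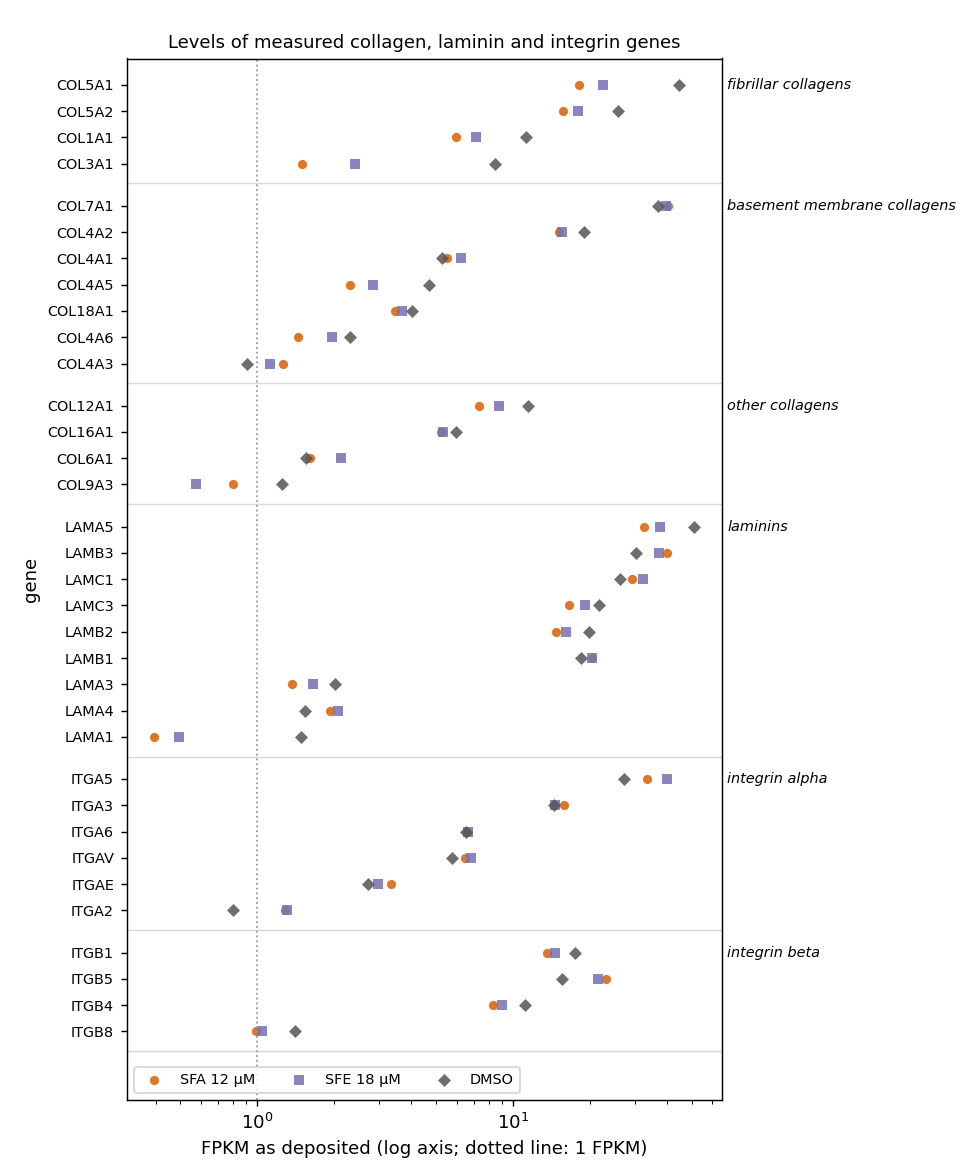
FPKM as deposited on a log axis for the measured members whose values are reported, by subgroup, in the SFA (circles), SFE (squares) and DMSO (diamonds) libraries; each point is 1 library. The 4 measured fibrillar collagens lie to the left of their DMSO point in both treated libraries (background 48.6% with SFA and 44.8% with SFE). LAMA5 (51.0 FPKM with DMSO) and COL5A1 (44.5 FPKM with DMSO) are the members with the highest DMSO levels.

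Fibrillar collagens stood lower in both treated libraries, and other subgroups differed less in sum. The summed level of the 11 fibrillar collagen genes was 42.8 FPKM with SFA, 51.5 FPKM with SFE and 91.1 FPKM with DMSO. The 23 other collagens went the same way, at 16.2 FPKM with SFA, 18.0 with SFE and 21.2 with DMSO. For the 10 basement membrane collagens the sums were 69.7, 71.2 and 73.3 FPKM with SFA, SFE and DMSO, and for the 12 laminins 160, 170 and 174 FPKM. Integrin alpha subunits summed to 67.5 FPKM with SFA, 72.9 with SFE and 58.0 with DMSO, and beta subunits to 46.9, 47.4 and 46.1 FPKM. In a bulk library, fewer cells of a type and less RNA per cell cannot be told apart.

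**Figure D2:**
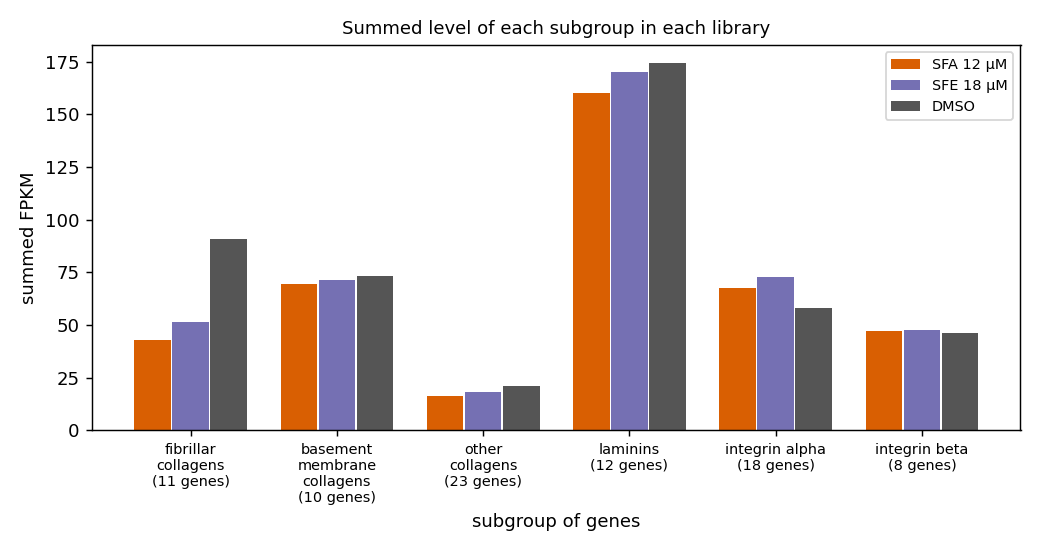
Summed FPKM (linear axis from 0) of all genes of each subgroup, measured or not, in the SFA, SFE and DMSO libraries; each bar is 1 library. The bars of fibrillar collagens stand at 42.8, 51.5 and 91.1 FPKM, while those of the laminins stand at 160, 170 and 174 FPKM.

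Called at 2-fold or more on the scale of log2(FPKM + 1), which understates differences of low genes, 2 of the 35 measured members (COL3A1 and COL5A1) were lower with SFA and 0 were higher. Over all 11680 measured genes, 1.34% were lower and 1.36% higher with SFA by the same rule. With SFE, 1 member (COL3A1) was lower and 0 were higher, beside 1.01% of all genes lower and 1.37% higher. The median log2 difference of the members was −0.18 with SFA, beside 0.01 for all genes, and −0.14 with SFE, beside 0.03. In sign, 19 members lay below DMSO with SFA (background 48.6%) and 16 above (background 51.4%), and with SFE 19 lay below (background 44.8%) and 16 above (background 55.2%). COL5A1 lay just short of 2-fold with SFE, at −0.96, and was past it, at −1.03, when libraries were scaled by median-ratio size factors.

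A wider limit was used to choose which members are given in full: a count ratio per library total of 1.5-fold or more and at least 20 counts in the higher library. By it 10 of 35 measured members were lower with SFA (background 7.76%) and 2 higher (background 7.92%). With SFE 6 were lower (background 5.72%) and 2 higher (background 8.17%). Of those lower in both comparisons, COL9A3 and LAMA1 passed 1 FPKM in the DMSO library alone. ITGA2, higher in both, passed it in the treated libraries alone. Both comparisons use the same DMSO library, so their directions are not independent of each other. Counting error alone left 19 members with an interval wholly below 1 with SFA (background 26.8%) and 13 wholly above (background 27.6%). With SFE these were 18 below (background 22.8%) and 12 above (background 28.9%). Such intervals narrow as counts grow, and the spread between cultures, which they do not hold, is not known.

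**Figure D3:**
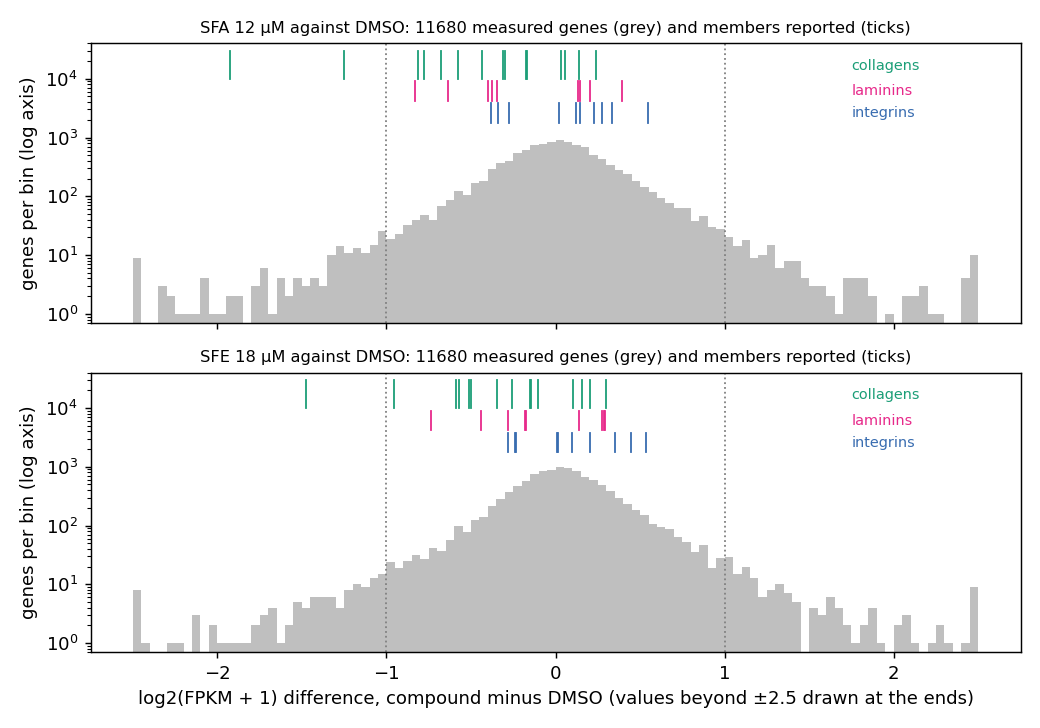
Differences of log2(FPKM + 1), compound minus DMSO, for all 11680 measured genes (grey histogram, log count axis) and the measured members whose values are reported (ticks in rows for collagens, laminins and integrins), with SFA above and SFE below; dotted lines mark 2-fold. COL3A1 is the leftmost tick in both panels, at −1.93 with SFA and −1.48 with SFE.

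Of the 11 fibrillar collagen genes 4 were measured, and all 4 were lower in both treated libraries. Over all measured genes 48.6% lay below DMSO with SFA and 44.8% with SFE, and both comparisons share 1 DMSO library. COL3A1, the chain of type III collagen (ENSG00000168542, chr2:188974320-189012746, hg38), had 190 counts with SFA, 306 with SFE and 1486 with DMSO, or 1.49, 2.40 and 8.47 FPKM. It was 5.68-fold lower with SFA (95% counting interval 4.88 to 6.65) and 3.53-fold lower with SFE (3.12 to 4.01). In the order of all 11680 measured genes from the most negative log2 difference, it stood at place 24 with SFA and place 40 with SFE. Its locus overlaps no other listed gene.

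COL5A1, a chain of type V collagen, which sits inside heterotypic fibrils and governs their start, was the fibrillar collagen with the highest level in each library. It had 3791 counts with SFA, 4704 with SFE and 12833 with DMSO, or 18.1, 22.4 and 44.5 FPKM, and both treated libraries lay well below DMSO. The gene (chr9:134641774-134844843) was 2.46-fold lower with SFA (2.37 to 2.55) and 1.98-fold lower with SFE (1.92 to 2.05). COL5A2, its partner chain (chr2:189031896-189179879), stood at 15.6 FPKM with SFA, 17.8 with SFE and 25.6 with DMSO, which is 1.64-fold lower with SFA (1.56 to 1.73) and 1.44-fold lower with SFE (1.37 to 1.51). Because COL5A1 lay further below DMSO than COL5A2, the ratio of their levels was 1.16 with SFA, 1.26 with SFE and 1.73 with DMSO.

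The promoter window of COL5A1 is shown because that gene carries the largest part of the fibrillar collagen level, 42.2% with SFA, 43.6% with SFE and 48.8% with DMSO. It runs from 250 bases before to 50 bases after the RefSeq start on the plus strand (GRCh38.p14, chr9:134641555-134641854), 5′ to 3′, with GGGCGG, the box bound by Sp1, in capitals on either strand.
COL5A1: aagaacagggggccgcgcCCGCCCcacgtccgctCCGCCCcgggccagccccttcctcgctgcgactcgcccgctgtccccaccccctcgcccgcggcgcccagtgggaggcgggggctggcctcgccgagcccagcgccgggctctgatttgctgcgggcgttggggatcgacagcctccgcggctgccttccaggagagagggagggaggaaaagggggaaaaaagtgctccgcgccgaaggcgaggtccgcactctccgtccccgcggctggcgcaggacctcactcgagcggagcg
The window holds 2 GGGCGG boxes, both on the minus strand, and 0 CCAAT boxes on either strand.

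COL1A1, a chain of type I collagen (chr17:50183289-50201632), stood at 5.96 FPKM with SFA, 7.16 with SFE and 11.3 with DMSO. It was 1.89-fold lower with SFA (1.76 to 2.03) and 1.57-fold lower with SFE (1.47 to 1.68). COL1A2, the other chain of the usual type I trimer, had 0 counts with SFA, 0 with SFE and 1 with DMSO, under the floor of 3 counts in every library, so no fold is given. The cells thus listed one type I chain without the other in every library.

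COL3A1 and COL5A2 are neighbours on chromosome 2, read toward each other with 19.1 kb between them, and both stood lower in the treated libraries. COL1A1 lies 92.8 kb from the integrin gene ITGA3 on chromosome 17, and these neighbours differed: ITGA3 stood at 15.8 FPKM with SFA, 14.6 with SFE and 14.5 with DMSO. Of the fibrillar collagens that were not measured, COL27A1 came closest to the limit, at 0.910 FPKM with SFA, 0.906 with SFE and 0.695 with DMSO.

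**Figure D4:**
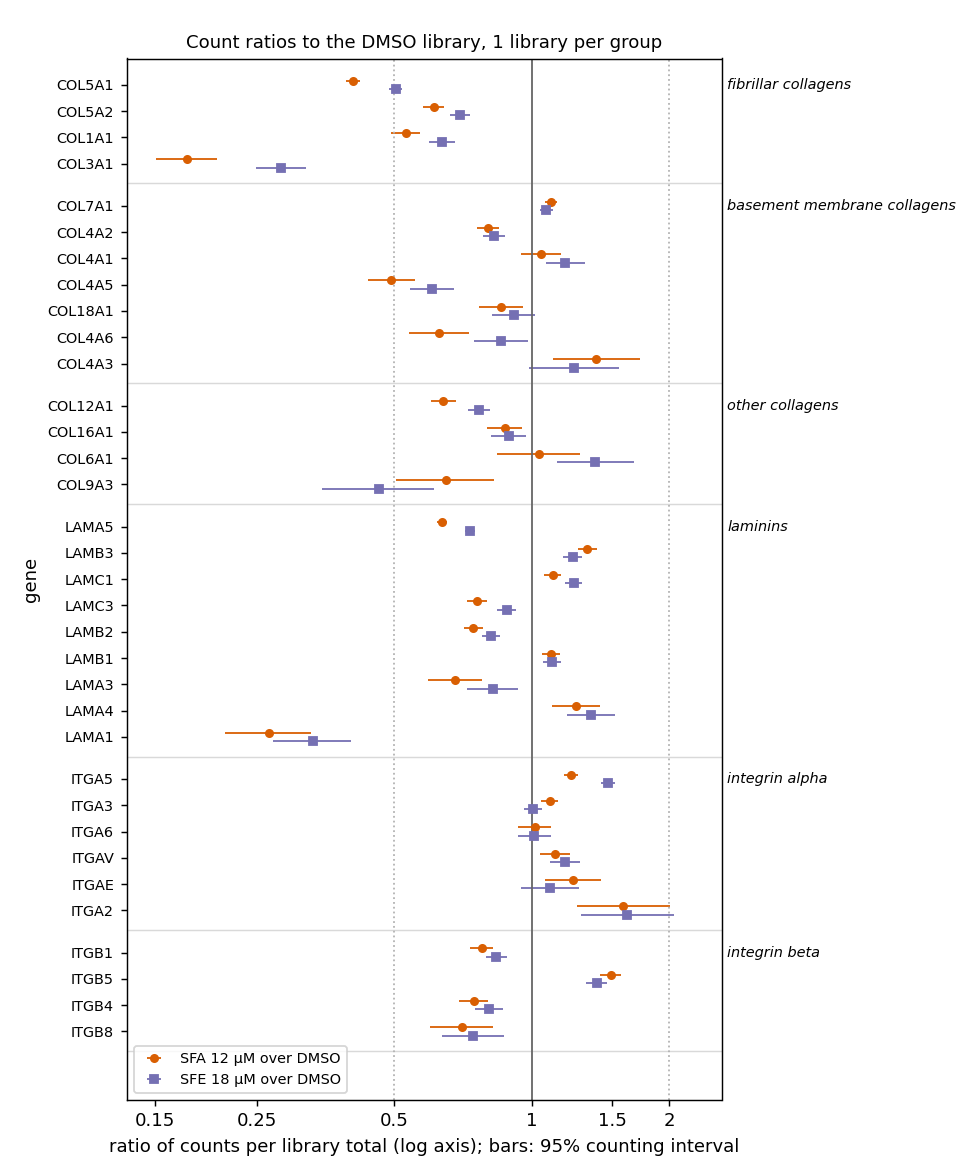
Ratio of counts per library total to the DMSO library for the measured members whose values are reported (log axis), with SFA (circles) and SFE (squares); bars are 95% exact counting intervals, and dotted lines mark 2-fold. COL3A1 (0.176 with SFA, 0.283 with SFE) and LAMA1 (0.265 with SFA, 0.332 with SFE) lie furthest to the left, and ITGA2 (1.59 with SFA, 1.62 with SFE) lies furthest to the right of the genes drawn.

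Of the 10 basement membrane collagens 7 were measured, and COL4A5 was the one furthest from DMSO. It codes for a chain of type IV collagen that pairs with COL4A6 or with COL4A3 and COL4A4, and had 385 counts with SFA, 472 with SFE and 1074 with DMSO, or 2.31, 2.83 and 4.68 FPKM. The difference was 2.03-fold lower with SFA (1.80 to 2.28) and 1.65-fold lower with SFE (1.48 to 1.85). COL4A6 stood at 1.44 FPKM with SFA, 1.96 with SFE and 2.29 with DMSO, 1.60-fold lower with SFA (1.37 to 1.86) and 1.17-fold lower with SFE (1.02 to 1.34). Both genes were lower in both treated libraries, COL4A5 by more.

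Genes for type IV collagen lie in head-to-head pairs, each pair read outward from a shared stretch of promoter. COL4A1 and COL4A2 code for the chains of the common type IV trimer, with starts 127 bases apart on chromosome 13 and 226 bases shared by their promoter windows. COL4A1 stood at 5.51 FPKM with SFA, 6.22 with SFE and 5.26 with DMSO, and COL4A2 at 15.1, 15.6 and 18.8 FPKM. The count ratio of COL4A1 was 1.05 with SFA (0.948 to 1.16) and 1.18 with SFE (1.07 to 1.30), whereas that of COL4A2 was 0.801 with SFA (0.758 to 0.847) and 0.828 with SFE (0.784 to 0.874). The intervals of the pair do not overlap in either comparison, so these genes on one shared promoter stretch differed in opposite directions with SFE, and with SFA the interval of COL4A1 spans 1. COL4A2 stood above COL4A1 by 2.73 times with SFA, 2.503 times with SFE and 3.58 times with DMSO. The listed loci of the pair overlap, but in GENCODE 29 they share 0 exon bases.

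The windows of COL4A2, which holds the start of COL4A1 on the other strand, and of COL4A5, which reaches into that of COL4A6, are shown because the chains of the first pair stood apart from each other relative to DMSO and those of the second were both lower. Both are on the plus strand of GRCh38.p14 (RefSeq), chr13:110307034-110307333 and chrX:108439588-108439887, 5′ to 3′, with CCAAT and GGGCGG boxes on either strand in capitals.
COL4A2: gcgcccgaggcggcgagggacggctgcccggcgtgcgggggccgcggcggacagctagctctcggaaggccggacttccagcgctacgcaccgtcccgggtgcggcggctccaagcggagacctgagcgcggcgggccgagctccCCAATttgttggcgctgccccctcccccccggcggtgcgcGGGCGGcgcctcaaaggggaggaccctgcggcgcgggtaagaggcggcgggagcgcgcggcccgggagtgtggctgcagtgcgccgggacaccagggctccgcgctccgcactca
COL4A5: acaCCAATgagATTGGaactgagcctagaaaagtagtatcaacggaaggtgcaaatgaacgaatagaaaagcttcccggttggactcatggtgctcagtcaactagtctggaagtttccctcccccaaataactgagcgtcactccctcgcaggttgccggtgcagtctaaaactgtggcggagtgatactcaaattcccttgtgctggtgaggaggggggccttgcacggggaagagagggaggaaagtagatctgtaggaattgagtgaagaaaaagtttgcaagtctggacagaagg
The COL4A2 window holds 1 CCAAT and 1 GGGCGG box, and the COL4A5 window 2 CCAAT boxes and 0 GGGCGG boxes. The starts of COL4A5 and COL4A6 used here lie 380 bases apart, and their windows share 121 bases.

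Promoter windows were found for 58 of the 82 members and for 25 of the 35 measured ones, which have 35 windows in all. GGGCGG was present on either strand in 28 of these windows (80.0%), beside 45.0% of 35116 windows of all genes, and CCAAT in 7 (20%), beside 34.6%. The TATA box letters TATAAA were present in 4 (11.4%), beside 11.5%, and TGANTCA in 3 (8.57%), beside 7.71%. With any base allowed at N, TGANTCA takes in the site that AP-1 binds and also other sequences. The genes with TGANTCA were ITGA5, LAMA3 and LAMB3. The members' windows are those of measured genes, whereas the 35116 windows hold genes whether measured or not, so the shares are not like for like. Some members' windows also share bases with each other. These are descriptions of letters in short windows, not of binding. None of the 4 motifs holds another.

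COL7A1, which forms the anchoring fibrils that tie the basement membrane to the tissue below, had the highest level of the basement membrane collagens, at 40.4 FPKM with SFA, 39.4 with SFE and 36.6 with DMSO. Its count ratio was 1.10 with SFA (1.07 to 1.14) and 1.08 with SFE (1.04 to 1.11), a small excess in both. COL18A1, whose cleaved end is endostatin, stood at 3.45, 3.68 and 4.03 FPKM with SFA, SFE and DMSO. It shares 1401 exon bases with SLC19A1 on the other strand, which had 1779, 1818 and 2162 counts, so its value is uncertain. COL4A3 stood at 1.26 FPKM with SFA, 1.13 with SFE and 0.909 with DMSO.

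Its head-to-head partner COL4A4, under 1 FPKM everywhere and picked out after its values were seen, had 32 counts with SFA, 43 with SFE and 113 with DMSO. COL4A3 had 171, 153 and 170 counts in the same libraries, so this pair too was unequal, although its starts lie 419 bases apart. COL15A1 and COL17A1 were the other basement membrane collagens not measured.

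Among the 23 other collagens 4 were measured. COL12A1, a fibril-associated collagen that coats fibres, stood at 7.34 FPKM with SFA, 8.78 with SFE and 11.5 with DMSO. It was 1.56-fold lower with SFA (1.47 to 1.66) and 1.30-fold lower with SFE (1.23 to 1.38), and overlaps no listed gene. COL16A1, also fibril-associated, stood at 5.21, 5.31 and 5.97 FPKM with SFA, SFE and DMSO. COL6A1, a chain of the beaded filaments of type VI collagen, stood at 1.60 FPKM with SFA, 2.13 with SFE and 1.54 with DMSO, with a count ratio of 1.04 with SFA (0.84 to 1.28) and 1.38 with SFE (1.13 to 1.67). Its usual partners COL6A2 and COL6A3 had at most 24 and 10 counts in any library.

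COL9A3, a fibril-associated chain best known from cartilage, had 98 counts with SFA, 70 with SFE and 208 with DMSO. It stood at 0.807, 0.576 and 1.24 FPKM, so that it passed the limit for measured genes in the DMSO library alone. The counts were 1.54-fold lower with SFA (1.21 to 1.98) and 2.16-fold lower with SFE (1.64 to 2.87). COL9A3 shares 45 exon bases with TCFL5 on the other strand, which had 281 counts with SFA, 307 with SFE and 620 with DMSO and so was lower too. The part of TCFL5 reads in the COL9A3 value was not tested.

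The laminins lay on both sides of DMSO. Of 12 laminins 10 were measured. In both comparisons the counting interval lay above 1 for LAMA4, LAMB1, LAMB3 and LAMC1 (background 27.6% with SFA and 28.9% with SFE). It lay below 1 in both for LAMA1, LAMA3, LAMA5, LAMB2 and LAMC3 (background 26.8% with SFA and 22.8% with SFE). Of the alpha chains 3 of the 4 measured were lower and LAMA4 was higher. Over all measured genes 48.6% lay below DMSO with SFA and 44.8% with SFE. LAMA1, among the lower alpha chains, counts as measured through the DMSO library alone, so its direction follows in part from passing. The gamma and beta chains held members on both sides.

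LAMA5, the alpha chain of the laminins most common in adult epithelia, had the highest level of all members in the DMSO library. It stood at 32.5 FPKM with SFA, 37.4 with SFE and 51.0 with DMSO, from 7907, 9116 and 17106 counts. It was 1.57-fold lower with SFA (1.53 to 1.62) and 1.36-fold lower with SFE (1.33 to 1.40). LAMA5 (chr20:62307955-62367312) shares 244 of its 14291 exon bases with ADRM1, which is on the other strand and had 5274, 4925 and 6134 counts with SFA, SFE and DMSO.

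LAMA1, the alpha chain best known from the embryo, was the laminin furthest from DMSO. It had 104 counts with SFA, 130 with SFE and 539 with DMSO, or 0.394, 0.492 and 1.48 FPKM, so that it passed the limit for measured genes in the DMSO library alone. The counts were 3.77-fold lower with SFA (3.05 to 4.69) and 3.01-fold lower with SFE (2.48 to 3.68), although on the log2(FPKM + 1) scale its differences of −0.83 and −0.73 stay within 2-fold. LAMA4, found in laminins of vessels and muscle, stood at 1.92 FPKM with SFA, 2.07 with SFE and 1.54 with DMSO, a count ratio of 1.25 with SFA (1.10 to 1.41) and 1.35 with SFE (1.196 to 1.52).

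LAMA3 and LAMB3 are chains of the laminin that epithelial cells bind through hemidesmosomes. LAMB3 stood at 39.9 FPKM with SFA, 37.1 with SFE and 30.2 with DMSO, a ratio of 1.32 with SFA (1.26 to 1.39) and 1.23 with SFE (1.17 to 1.29).

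LAMA3 lay on the other side of DMSO. It stood at 1.37 FPKM with SFA, 1.66 with SFE and 2.02 with DMSO, 1.47-fold lower with SFA (1.28 to 1.69) and 1.22-fold lower with SFE (1.07 to 1.39). LAMB3 stood above LAMA3 by 29.2, 22.4 and 14.98 times with SFA, SFE and DMSO.

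The beta and gamma chains of the broader laminins showed small and mixed differences. LAMB1 stood at 20.3 FPKM with SFA, 20.3 with SFE and 18.4 with DMSO, and LAMB2, the chain of the mature basement membrane at synapses and in the kidney, at 14.7, 16.01 and 19.7 FPKM. LAMB1 was thus above LAMB2 in the treated libraries and below it with DMSO. The level ratios were 1.38 with SFA, 1.27 with SFE and 0.935 with DMSO. LAMB1 shares 70 of its 8140 exon bases with DLD on the other strand. DLD had 367, 370 and 610 counts with SFA, SFE and DMSO. LAMC1, the gamma chain of most laminins, stood at 28.99 FPKM with SFA, 32.2 with SFE and 26.1 with DMSO, and LAMC3 at 16.5, 19.1 and 21.7 FPKM. LAMA2 and LAMB4 were not measured, the second of them at 0 counts in every library.

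Of the 18 integrin alpha subunits 6 were measured, and their median log2 difference was 0.19 with SFA and 0.15 with SFE. Without genes that overlap another, ITGA3 alone was left, at 0.12 with SFA and 0.01 with SFE, so this setting gives no median over the subgroup. ITGA5, which with ITGB1 forms the main fibronectin receptor, had the highest level of the integrins, at 33.2 FPKM with SFA, 39.8 with SFE and 27.2 with DMSO. Its count ratio was 1.22 with SFA (1.18 to 1.26) and 1.47 with SFE (1.42 to 1.52). ITGA2, the alpha subunit of a collagen receptor, had 158 counts with SFA, 161 with SFE and 137 with DMSO, a ratio of 1.59 with SFA (1.25 to 2.01) and 1.62 with SFE (1.28 to 2.05). ITGA2 reached 1.28 FPKM with SFA and 1.30 with SFE against 0.807 with DMSO, so it passed the limit through the treated libraries alone.

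The alpha subunits of the laminin receptors lay close to DMSO. ITGA6 stood at 6.63 FPKM with SFA, 6.63 with SFE and 6.54 with DMSO, with count ratios of 1.01 with SFA (0.933 to 1.10) and 1.01 with SFE (0.932 to 1.10). ITGA3 had count ratios of 1.09 with SFA (1.05 to 1.14) and 1.01 with SFE (0.963 to 1.05). ITGAV, the alpha subunit of receptors that read the RGD motif, stood at 6.49, 6.81 and 5.77 FPKM with SFA, SFE and DMSO.

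ITGAE, known from lymphocytes that settle in epithelia, stood at 3.34 FPKM with SFA, 2.96 with SFE and 2.71 with DMSO, but its beta partner ITGB7 had at most 19 counts in any library. ITGAE shares 427 exon bases with GSG2 on the other strand, which had 805, 793 and 993 counts with SFA, SFE and DMSO, so its value is uncertain. The alpha subunits typical of leukocytes and platelets (ITGAD, ITGAL, ITGAM, ITGAX and ITGA2B) had at most 26 counts in any library, and ITGA4, ITGA8 and ITGA9 had 0 in all. ITGA1, ITGA7, ITGA10 and ITGA11 had at most 55.

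Of the 8 beta subunits 4 were measured, and ITGB5 was the one that stood higher. ITGB5, which pairs with ITGAV to bind vitronectin, had 2896 counts with SFA, 2700 with SFE and 2677 with DMSO, or 23.1, 21.5 and 15.5 FPKM. Its count ratio was 1.49 with SFA (1.41 to 1.57) and 1.39 with SFE (1.31 to 1.46). ITGB1, the shared partner of most alpha subunits, stood at 13.5 FPKM with SFA, 14.5 with SFE and 17.4 with DMSO, which is 1.29-fold lower with SFA (1.22 to 1.36) and 1.19-fold lower with SFE (1.13 to 1.26). ITGB1 was therefore below ITGB5 in the treated libraries and above it with DMSO, with level ratios of 0.585 with SFA, 0.676 with SFE and 1.12 with DMSO.

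ITGB4, the hemidesmosome subunit that pairs with ITGA6, stood at 8.32 FPKM with SFA, 9.0 with SFE and 11.1 with DMSO, 1.34-fold lower with SFA (1.25 to 1.44) and 1.24-fold lower with SFE (1.15 to 1.33). The level of ITGB4 over that of ITGA6 was 1.25 with SFA, 1.36 with SFE and 1.70 with DMSO. ITGB8 stood at 0.987, 1.04 and 1.40 FPKM with SFA, SFE and DMSO. ITGB3, just under the limit, had 54 counts with SFA, 68 with SFE and 47 with DMSO, and ITGB2 and ITGB6 had at most 34 and 4 counts.

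Of 31 listed genes of collagen synthesis and maturation 22 were measured, with a median log2 difference of 0.11 with SFA and 0.13 with SFE. On the log2(FPKM + 1) scale 0 were 2-fold lower or higher in either comparison. The background was 1.34% lower and 1.36% higher with SFA, and 1.01% lower and 1.37% higher with SFE. By the 1.5-fold count limit 2 were lower (PXDN and TLL1, background 7.76%) and 1 higher (LOXL3, background 7.92%) with SFA. With SFE 2 were lower (PXDN and TLL1, background 5.72%) and 0 higher (background 8.17%). TLL1 stood at 0.596, 0.745 and 1.23 FPKM with SFA, SFE and DMSO, so it passed the limit for measured genes in the DMSO library alone. PXDN, which makes the sulfilimine bond that crosslinks type IV collagen, stood at 12.4 FPKM with SFA, 13.9 with SFE and 22.1 with DMSO. PCOLCE, which speeds the trimming of fibrillar procollagens, stood at 32.2, 34.6 and 48.0 FPKM with SFA, SFE and DMSO. P3H1, a prolyl hydroxylase, stood at 5.62, 6.97 and 4.80 FPKM and its partner CRTAP at 64.9, 53.3 and 70.8 FPKM.

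Other matrix glycoproteins, 14 measured of 25 listed, had a median log2 difference of −0.16 with SFA and −0.01 with SFE. FBLN1, a fibulin of basement membranes and elastic fibres, stood at 31.3 FPKM with SFA, 34.0 with SFE and 57.7 with DMSO, and SPARC, a collagen-binding protein, at 51.2, 56.4 and 71.5 FPKM. FBLN2 was the 1 gene of this list 2-fold lower with SFA on the log2(FPKM + 1) scale (background 1.34%). Picked out for that reason, it had 66 counts with SFA, 142 with SFE and 322 with DMSO. THBS1, a matricellular protein, was higher in the treated libraries, at 45.3 FPKM with SFA, 43.4 with SFE and 28.4 with DMSO, and FBN1, a fibrillin, stood at 6.06, 7.58 and 7.98 FPKM.

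Among matrix proteases and their inhibitors, 15 measured of 29 listed, 4 genes were 1.5-fold higher by count ratio (background 7.92%) and 0 lower (background 7.76%) with SFA. With SFE 3 were higher (background 8.17%) and 0 lower (background 5.72%). TIMP3 stood at 33.2 FPKM with SFA, 30.7 with SFE and 17.4 with DMSO, and TIMP4 at 16.4, 19.5 and 8.72 FPKM. Both code for inhibitors of metalloproteinases, and TIMP4 was 2-fold higher with SFE on the log2(FPKM + 1) scale (background 1.37%). PLAUR, the urokinase receptor, stood at 10.2, 10.4 and 6.65 FPKM, and ADAM17, a sheddase, at 7.16, 6.10 and 4.36 FPKM. All 4 of these loci overlap another listed gene. Whether they share exon bases with it was not examined, so how far their values are affected is not known. The same holds for PCOLCE, CRTAP, THBS1, SPARC and FBN1 above and for PXN, BCAR1, SDC4, DDR2 and CD151 below. It also holds for the markers KRT7, KRT8, KRT18, THY1, CSPG4 and ACTA2.

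In the complex that joins integrins to actin, 29 measured of 33 listed, 5 genes were 1.5-fold higher by count ratio (background 7.92%) and 1 lower (background 7.76%) with SFA. With SFE 5 were higher (background 8.17%) and 1 lower (background 5.72%). The lower gene was TNS4 with SFA and NEDD9 with SFE. PXN, the adaptor paxillin, stood at 44.2 FPKM with SFA, 42.8 with SFE and 23.0 with DMSO. FERMT1, an integrin activator of the kindlin family, stood at 5.23, 6.13 and 3.15 FPKM, and BCAR1, a docking protein of focal adhesions, at 4.69, 8.44 and 3.71 FPKM. On the log2(FPKM + 1) scale BCAR1 was the 1 gene of the list 2-fold higher with SFE (background 1.37%), just beyond the limit at 1.001. By count ratio LIMS1, an adaptor of the same complex named after its values were seen, was further from DMSO with SFE. It had 136 counts with SFA, 364 with SFE and 162 with DMSO, a ratio of 3.09 with SFE (2.56 to 3.74). LIMS1 stood at 0.702, 1.88 and 0.608 FPKM with SFA, SFE and DMSO, so it passed the limit for measured genes in the SFE library alone. Its locus also overlaps another listed gene. TNS4, a tensin that lacks the actin-binding part, stood at 11.5 FPKM with SFA, 13.6 with SFE and 19.9 with DMSO.

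A further list held 13 genes, all measured, for other laminin and collagen receptors and associated proteins. PLEC and DST, which do not code for receptors, are among them. SDC4, a syndecan of focal adhesions, stood at 66.4 FPKM with SFA, 59.3 with SFE and 38.7 with DMSO. DDR2, a receptor kinase for fibrillar collagen, stood at 8.76, 7.92 and 5.53 FPKM, and CD151, a tetraspanin that binds laminin-receptor integrins, at 44.2, 29.1 and 29.4 FPKM. DAG1, which codes for dystroglycan, stood at 31.5, 38.2 and 41.4 FPKM with SFA, SFE and DMSO. The median log2 difference of the list was 0.09 with SFA and −0.004 with SFE. By the 1.5-fold count limit 4 were higher (background 7.92%) and 1 lower (background 7.76%) with SFA. With SFE 2 were higher (background 8.17%) and 0 lower (background 5.72%). SDC3 alone was 2-fold higher on the log2(FPKM + 1) scale (background 1.36% with SFA and 1.37% with SFE) and is named for that reason. It had 287 counts with SFA, 351 with SFE and 109 with DMSO, and passed 1 FPKM in the treated libraries alone.

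Markers of the labelled cell type were mixed, and the identity of the line was not tested. KRT8, KRT18 and KRT7 stood at 223, 292 and 161 FPKM with SFA, at 232, 294 and 151 FPKM with SFE and at 416, 534 and 118 FPKM with DMSO, in contrast to the near absence of EPCAM, KRT19 and CDH1. Of 7 epithelial markers 4 were measured, the other being CLDN4. The 7 fibroblast markers, 3 of them measured, summed to 10.5 FPKM with SFA, 11.6 with SFE and 13.03 with DMSO. PDGFRB among them stood at 2.63, 2.99 and 6.39 FPKM and THY1 at 6.48, 7.25 and 4.29 FPKM, while DCN and LUM were at or under 0.378 FPKM and PDGFRA was at 0 in all libraries. The 7 pericyte and smooth muscle markers, 4 of them measured, summed to 47.4 FPKM with SFA, 54.2 with SFE and 68.3 with DMSO. They were led by CSPG4 at 22.1, 27.1 and 42.0 FPKM, with ACTA2 at 17.6, 19.4 and 17.7 FPKM, while RGS5, MYH11 and CNN1 were not measured. The part of these markers in the fibrillar collagen differences was not tested. The 7 endothelial and 7 leukocyte markers each summed to less than 1 FPKM in every library, and 0 of them were measured.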

How the data were processed

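RNA was measured in 3 libraries labelled AGS, 1 per group; whether the cells are that line was not tested, and some defining epithelial markers were near 0. The authors deposited raw counts per gene and FPKM for each library. The submitters' processing notes name StringTie 1.2.3, HISAT2 2.0.4 and the build hg38. Their roles, the counting tool, its strand setting and the annotation are not given there. The deposited FPKM is the count over 1 length per gene and the library total: over 22070 genes the lengths implied by the libraries differed by at most 0.0831%.

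A gene was kept where any library reached 1 FPKM, which left 11680. Differences are log2(FPKM + 1), compound minus DMSO; ratios are counts per library total with exact conditional (Clopper-Pearson) 95% intervals, checked on simulated counts. The labels describe no molecular identifiers, so intervals and floors cover counting error only. The rule for naming was every measured member, with full values past 1.5-fold at 20 counts or for the highest of a subgroup, and, in other lists, up to 4 genes at 5 FPKM or more with the largest difference. The values of 1 measured member are not reported here, although counts, sums and medians over members hold it. Members and lists were chosen with earlier results of these data known. Of all identifiers 56.1% overlap another, and 24 of the 35 measured members do, 8 of them a gene with 100 counts or more; without strand such reads cannot be told apart. All 82 members matched GENCODE 29, 69 with the same coordinates. Promoter sequences are from RefSeq (GRCh38.p14). Python 3.11.15, SciPy 1.17.1 and matplotlib 3.10.9 were used.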

Additional observations from a re-analysis of the deposited data

How the results depend on the processing

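No paired analysis was possible because each group has 1 library. No member was 2-fold higher under any of the 8 alternatives run. The number lower with SFA, 2 as reported, was 1 without overlapping genes (COL5A1 is left out for an antisense gene with 0 counts). It was 3 with a pseudocount of 0.1, 4 by the ratio of counts without a pseudocount and 7 at a 1.5-fold limit. With SFE, 1 as reported, it was 2 with a pseudocount of 0.1, 2 with median-ratio size factors, 3 by the ratio of counts and 4 at a 1.5-fold limit. The alternative that sums the identifiers of a name is also a ratio of counts without a pseudocount; since no member has a second identifier, its 4 with SFA and 3 with SFE come from that scale and not from summing. COL5A1 moved across the limit with SFE, at −0.96 as reported and −1.03 with median-ratio factors. The median over members with SFA was −0.38 without overlapping genes. A pseudocount of 0.1 gave −1.68 for LAMA1 with SFA and −1.42 with SFE. Laminin medians changed sign without overlapping genes, to 0.01 with SFA and 0.06 with SFE, and those of basement membrane collagens at a filter of 5 FPKM, to 0.06 and 0.10. Without overlapping genes the value with SFE was 0.01 for integrin alpha subunits, where ITGA3 alone was left. For other collagens it was −0.03, from COL12A1 and COL6A1 alone. With median-ratio factors the median of integrin alpha subunits with SFE was 0.09. Over all genes, the number 2-fold lower with SFA, 157 as reported, ran between 48 without overlapping genes and 545 at a 1.5-fold limit, and the number higher, 159 as reported, between 55 and 626 under the same settings. With SFE, 118 lower as reported ran between 33 and 406, and 160 higher between 47 and 624. A detection limit of 0.5 FPKM counted 37 members with SFA, 36 with SFE and 38 with DMSO. Depth limits the low members: COL9A3 rests on 98, 70 and 208 counts with SFA, SFE and DMSO. The cause of these shifts was not tested.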
